A study of Mus musculus with 9 samples.

Results

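The miR-193 and miR-365 clusters are a pair of related loci, each with a miR-193 hairpin followed by a miR-365 hairpin. Their 7 mature miRNAs were chosen by name from the 1966 mature miRNAs of a small RNA count table of mouse quadriceps. The choice was made with results of the comparisons with WT known, in which miR-365-2-5p was lower in both knockouts, so the members' values against WT are given here as a description, and whether they passed the threshold used for all miRNAs is stated without its p. For the members, p-values are given only for the direct comparison of the knockouts, which does not use the WT libraries but shares its knockout libraries with the comparisons already known.

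The libraries came from 9 mice, labelled 90 days old, with 1 library per mouse and 3 mice per group. WT mice were C57BL/6J with intact Mbnl1 and Mbnl2 (Mbnl1+/+ Mbnl2+/+). Mbnl1KO mice were C57BL/6J, Mbnl2+/+, and homozygous for an Mbnl1 allele named {delta}E3. Mbnl2KO mice were Mbnl1+/+ on the strain B6.C-Tg(CMV-cre)1Cgn/J, which carries a Cre recombinase under the broadly active CMV promoter, and their labels give differing Mbnl2 allele pairs: {delta}E2/{delta}E2 in replicate 1, {delta}E2/{delta}E3 in replicate 2 and {delta}E2/{delta}E4 in replicate 3. The strain with its Cre transgene and the loss of Mbnl2 cannot be told apart, nor can the alleles and the replicates. MBNL1 and MBNL2 bind RNA and control alternative splicing. Their transcripts were not measured by small RNA sequencing, so the genotypes could not be checked in these files.

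A microRNA is cut from a hairpin by Drosha and Dicer into a duplex of a 5p arm and a 3p arm, and one of these arms usually enters Argonaute and pairs with mRNAs through its seed, bases 2 to 8. Arms of one hairpin, and hairpins close together on one strand, can come from a single primary transcript, whereas their mature levels also depend on processing and stability. The miR-193b and miR-365 pair is known from work on brown fat, where it was described as a promoter of adipocyte and a repressor of muscle differentiation, although mice lacking the chromosome 16 pair were later found to form brown fat. miR-193a and miR-193b are also known as repressors of growth-promoting genes in tumour work.

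All 7 members were matched by name to RefSeq mature sequences, and these were located on GRCm39 with the GENCODE annotation. On the plus strand of chromosome 11, Mir193a lay at chr11:79602795-79602860 and Mir365-2 at chr11:79617226-79617337, 14.4 kb apart. On the plus strand of chromosome 16, Mir193b lay at chr16:13267387-13267465 and Mir365-1 at chr16:13271704-13271790, 4.24 kb apart. Mir365-2 was intronic in the same-strand lncRNA genes Gm10387 and Gm74356, and both chromosome 16 hairpins were intronic in the same-strand lncRNA gene Gm53058. Antisense lncRNA genes, Gm74353 on chromosome 11 and Gm15738 on chromosome 16, also spanned these hairpins, and Mir193a lay in no other annotated transcript.

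**Figure D1:**
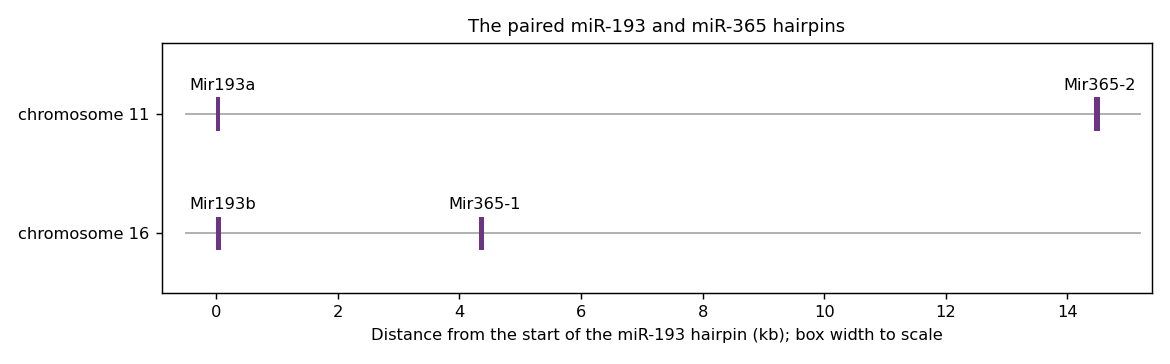
Positions of the miR-193 and miR-365 hairpins at each locus, as distance in kb from the start of the miR-193 hairpin; boxes are drawn to scale. The hairpins lie 14.4 kb apart on chromosome 11 and 4.24 kb apart on chromosome 16.

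The mature sequences are shown because they decide which locus a read can be assigned to. They are written 5′ to 3′ with the seed in capitals, first the chromosome 11 arms, then the chromosome 16 arms, then the arm made by both loci.
miR-193a-5p: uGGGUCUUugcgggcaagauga
miR-193a-3p: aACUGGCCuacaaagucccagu
miR-365-2-5p: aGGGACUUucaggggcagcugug
miR-193b-5p: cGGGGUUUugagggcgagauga
miR-193b-3p: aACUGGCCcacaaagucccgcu
miR-365-1-5p: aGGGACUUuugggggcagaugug
miR-365-3p: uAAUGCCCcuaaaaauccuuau

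mmu-miR-365-3p has the same 22 bases in both miR-365 hairpins, so its counts cannot be divided between the loci. The other 6 arms differ between the loci. With positions counted from 1 at the 5′ end and the chromosome 11 base written first, miR-193a-3p and miR-193b-3p were identical in 19 of 22 bases (U9C, A20G and G21C). They share the seed ACUGGCC, and no other mature miRNA of the RefSeq table has it. The 5p arms of miR-365 were identical in 20 of 23 bases (C10U, A11G and C19A), again with one shared seed. The 5p arms of miR-193 were identical in 17 of 22 bases (U1C, U5G, C6U, C11A and A16G), and as U5G and C6U fall in the seed, these arms have different seeds.

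MBNL proteins are known to bind RNA motifs with a GC step flanked by pyrimidines, and the terminal loop of a hairpin is one place where RNA-binding proteins act on processing. The bases between the arms are shown for this reason, with the motif UGCU, or the same motif with C in place of either U or of both (CGCU, for example), in capitals.
Mir193a loop: gagugucaguuc
Mir365-2 loop: uuuccugacucaguca
Mir193b loop: guuuguguuuuaucc
Mir365-1 loop: uuuccauucCGCUauca

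The Mir365-1 loop held 1 such motif and the loops of the other 3 hairpins held none. Over the whole hairpin, Mir365-1 held 3, Mir365-2 and Mir193b 1 each, and Mir193a 0. The motifs were read on the RNA strand only, and matches that overlap were each counted. Among 644 RefSeq hairpins with both arms known, 24.5% held at least 1 of these motifs in the 20 bases centred between the arms. In that window, which is longer than these loops, Mir365-1 again held 1 and the other 3 hairpins none. A match is a description of the letters and not a binding site.

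The number of reads per library summed to between 4761271 and 6277018, of which miR-1a-3p alone took 61.4% to 73.7%. Levels are given as normalized counts, the count scaled by the library total and the TMM factor to the mean library. The muscle identity of the libraries was clear from miR-1a-3p, miR-133a-3p and miR-206-3p. WT replicate 3 was the highest of all 9 libraries for miR-193a-5p, miR-365-2-5p, miR-365-3p, miR-193b-3p and miR-365-1-5p, so most results that rest on it are given with and without it. Replicate libraries differed by more than counting error. In bulk muscle, fewer cells of a type and less miRNA per cell cannot be told apart.

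The dominant arm was the 5p arm for miR-193a and the 3p arm for miR-193b and miR-365. In WT, miR-365-3p was the most abundant member at 1692 ± 447 normalized counts (SD, n = 3), rank 59 of all listed miRNAs. It was followed by miR-193a-5p with 338 ± 101, miR-193b-3p with 88.3 ± 28.2 and miR-365-2-5p with 84.8 ± 35.4. The last pair overlapped between libraries and did not differ beyond its spread. miR-193b-5p had 14.1 ± 2.65 and miR-365-1-5p 8.60 ± 2.65, and these ranges met at 11.2 in WT replicate 3. miR-193a-3p was listed at 0 to 2 counts. The table also lists at 0 some miRNAs known to be abundant in muscle or its vessels and blood, such as miR-126a-3p and miR-142a-3p, so a value at or near 0 may come from how reads were counted, which was not tested. The arms are 22 or 23 bases long, so no correction for length was made, but adapter ligation is known to favour some sequences, and its part in these levels was not tested.

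**Figure D2:**
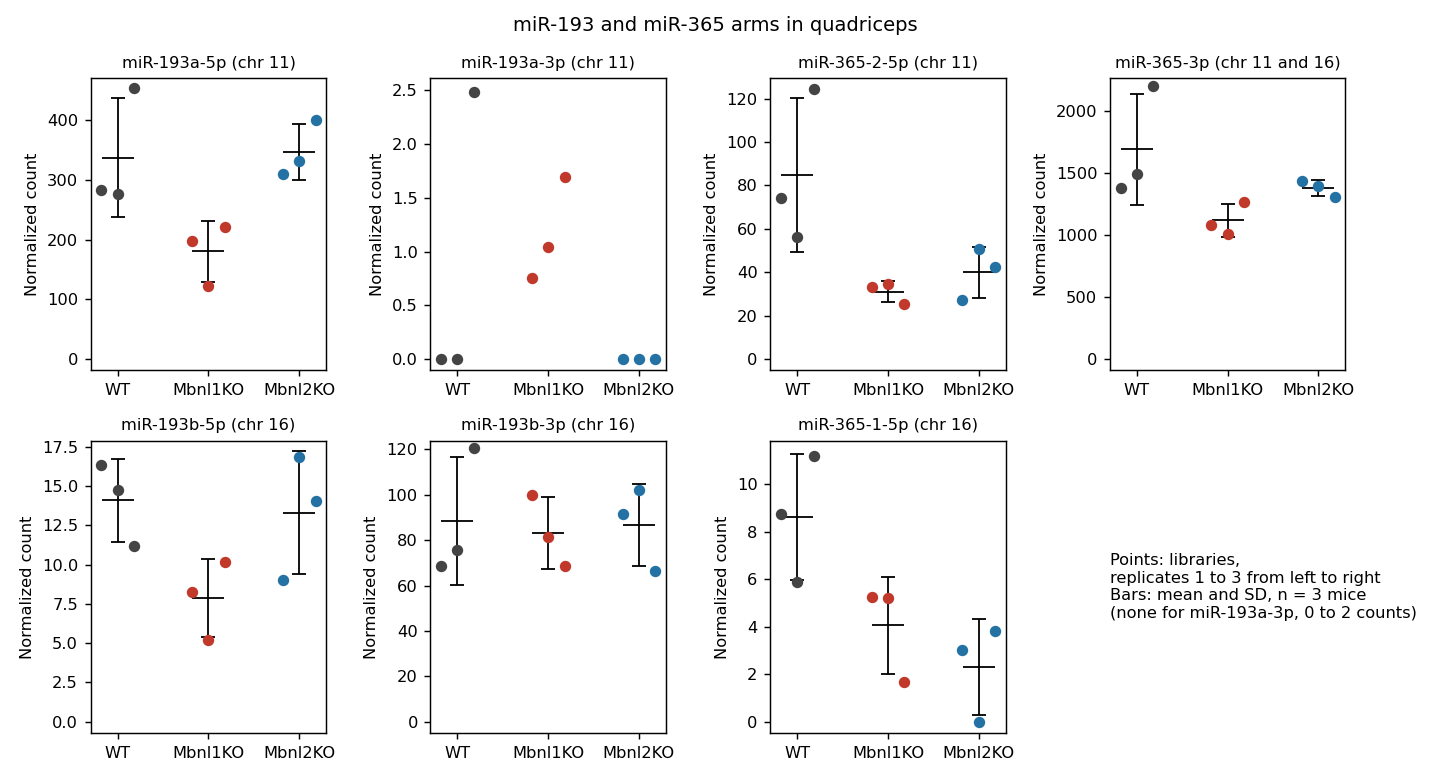
Normalized counts of the 7 arms (vertical axes, each with its own scale) in the 3 WT, 3 Mbnl1KO and 3 Mbnl2KO libraries; bars are mean and SD, left out for miR-193a-3p. All 3 Mbnl1KO libraries lie below all WT libraries for miR-193a-5p, miR-365-2-5p, miR-365-3p and, at few counts, miR-193b-5p and miR-365-1-5p. All 3 Mbnl2KO libraries lie below WT for miR-365-2-5p and, at few counts, miR-365-1-5p. Groups did not overlap, in either direction, for 44.8% of all tested miRNAs in Mbnl1KO and 23.2% in Mbnl2KO against WT.

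The question behind the comparisons with WT was how the loss of each MBNL protein affects muscle miRNAs. mmu-miR-365-2-5p, the passenger arm of the chromosome 11 miR-365 hairpin, had the largest difference among the tested members in both knockouts. It was counted at 74.2, 56.0 and 124 in WT, 33.0, 34.4 and 25.4 in Mbnl1KO, and 27.1, 50.4 and 42.2 in Mbnl2KO (replicates 1, 2 and 3). Every knockout library was below every WT library. These levels rest on raw counts of only 57 to 100 in WT and 27 to 51 in the knockouts.

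miR-365-2-5p was 63.3% lower in Mbnl1KO than in WT (log2 fold change -1.44, SE 0.302), and 0.946% of the tested miRNAs had a lower log2 fold change. In Mbnl2KO it was 52.1% lower (log2 fold change -1.06, SE 0.301), and 0.341% of the tested miRNAs had a lower value. In Mbnl2KO the difference passed the threshold used across all miRNAs (edgeR, adjusted p under 0.05) but did not pass it without Mbnl2KO replicate 1 (log2 fold change -0.90), without WT replicate 1 (-1.19) or without WT replicate 3 (-0.68). In Mbnl1KO its value lay between -1.69 and -1.08 with each library left out in turn, and at -1.08 without WT replicate 3. As the miRNA was chosen on these comparisons, passing the threshold describes it and supports nothing further.

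mmu-miR-193a-5p, the abundant arm of the miR-193a hairpin upstream on the same strand, was lower than WT in Mbnl1KO, while Mbnl2KO was close to WT. Its normalized counts were 283, 277 and 454 in WT, 197, 123 and 222 in Mbnl1KO, and 310, 331 and 400 in Mbnl2KO. All Mbnl1KO libraries lay below both other groups, and the Mbnl2KO libraries fell within the range of WT. It was 46.2% lower in Mbnl1KO than in WT (log2 fold change -0.89, SE 0.208), whereas the log2 fold change in Mbnl2KO was 0.06 (SE 0.184). Without WT replicate 3 these values were -0.63 and 0.34.

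mmu-miR-193a-3p, which shares its seed with miR-193b-3p, had raw counts of 0, 0 and 2 in WT, 1, 1 and 2 in Mbnl1KO and 0, 0 and 0 in Mbnl2KO. It did not pass the filter on low counts (a mean normalized count above 10) in any comparison. A count of 0 allows up to 3 counts, so no difference between groups was detectable at this depth.

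mmu-miR-365-3p, the arm that both loci make and the one usually taken as active, was counted at 1379, 1493 and 2204 in WT, 1085, 1007 and 1269 in Mbnl1KO, and 1440, 1398 and 1310 in Mbnl2KO. The Mbnl1KO libraries lay below all WT libraries and, by a narrow margin, below all Mbnl2KO libraries. It was 33.8% lower in Mbnl1KO than in WT (log2 fold change -0.59, SE 0.158). Without WT replicate 3 the log2 fold change was -0.36 and no longer passed the threshold. In Mbnl2KO the log2 fold change was -0.27 (SE 0.162), and it was -0.02 without WT replicate 3.

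Of the chromosome 16 arms, mmu-miR-193b-3p, the abundant arm of its hairpin, was at 68.7, 75.6 and 121 in WT, 99.9, 81.4 and 68.5 in Mbnl1KO and 91.4, 102 and 66.5 in Mbnl2KO. The 3 groups overlapped fully. Its log2 fold change from WT was -0.08 (SE 0.253) in Mbnl1KO and 0.00 (SE 0.247) in Mbnl2KO, and its sign turned with the scaling and with the library left out (0.20 and 0.30 without WT replicate 3).

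mmu-miR-193b-5p, the minor arm, had raw counts of 15, 15 and 9 in WT, 11, 5 and 12 in Mbnl1KO and 9, 17 and 11 in Mbnl2KO. As normalized counts, the highest Mbnl1KO library (10.1) was just under the lowest WT library (11.2). The log2 fold change was -0.82 (SE 0.434) in Mbnl1KO, which did not pass the threshold, and -0.08 (SE 0.420) in Mbnl2KO. Without WT replicate 3, where its level was lowest in WT, the values were -0.95 and -0.20.

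mmu-miR-365-1-5p, the chromosome 16 counterpart of miR-365-2-5p, had raw counts of 8, 6 and 9 in WT, 7, 5 and 2 in Mbnl1KO and 3, 0 and 3 in Mbnl2KO. It did not pass the filter on low counts in any comparison. Summed over libraries and scaled to their size, the level in Mbnl2KO was 0.256 times that in WT (6 against 23 counts, exact 95% interval 0.0854 to 0.648), and the level in Mbnl1KO was 0.480 times that in WT (14 against 23 counts, 0.228 to 0.974). Without WT replicate 3, a setting added after seeing the data, the ratios were 0.297 in Mbnl2KO (6 against 14 counts, 0.0937 to 0.824) and 0.557 in Mbnl1KO (14 against 14 counts, 0.246 to 1.26), and the second interval then includes 1. These intervals cover counting error only and leave out the spread between mice. As normalized counts, every library of either knockout was below every WT library, with the highest Mbnl1KO library at 5.26 and the lowest WT library at 5.89. In a fit of every miRNA with at least 1 count it did not pass the threshold, at -1.05 (SE 0.621) in Mbnl1KO and -1.88 (SE 0.820) in Mbnl2KO.

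Across the members, 5 of 7 passed the filter. In Mbnl1KO against WT, 3 of these 5 passed the threshold, all lower, where 33.1% of all 317 tested miRNAs passed in either direction. The median log2 fold change of the 5 was -0.82, against -0.01 over all tested. In Mbnl2KO against WT, 1 of 5 passed, where 5.80% of all 293 tested passed, with medians of -0.08 for the members and 0.02 for all. The groups did not overlap for 4 of 5 members in Mbnl1KO against WT and for 1 of 5 in Mbnl2KO against WT, where 44.8% and 23.2% of all tested miRNAs had groups that did not overlap. As these comparisons were known when the members were proposed, nothing is read from these counts. Both comparisons share the WT libraries.

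**Figure D3:**
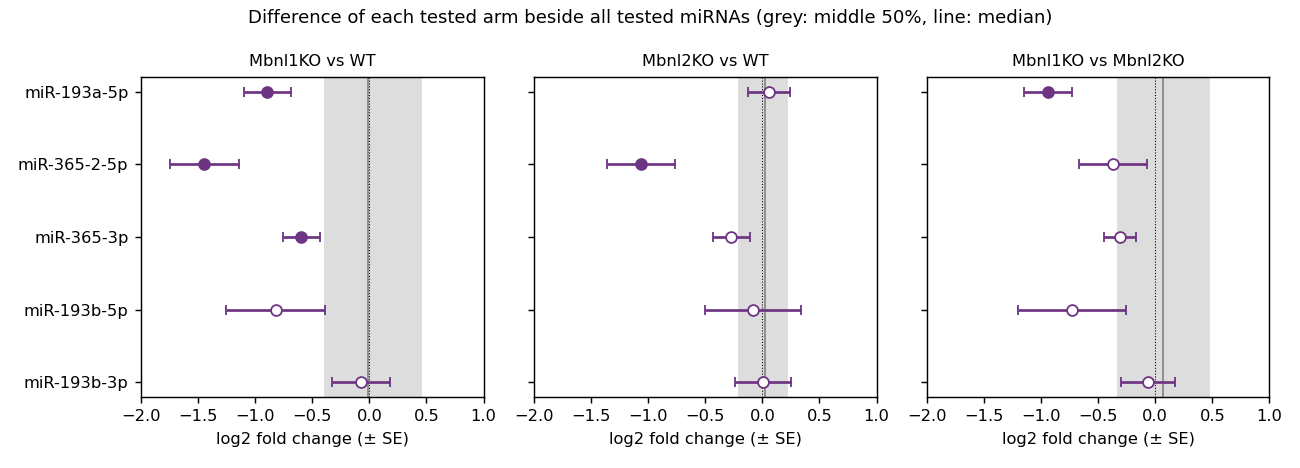
Log2 fold change with SE (horizontal axis) of the 5 tested arms in each comparison; filled points passed an adjusted p under 0.05 (edgeR), and the grey band and line are the middle 50% and the median of all tested miRNAs. miR-365-2-5p lies at -1.44 in Mbnl1KO and -1.06 in Mbnl2KO, while miR-193a-5p lies at -0.89 and 0.06.

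The knockouts were then compared directly. miR-193a-5p was 47.8% lower in Mbnl1KO than in Mbnl2KO (log2 fold change -0.94, SE 0.211, edgeR adjusted p = 0.00401), and all 3 Mbnl1KO libraries were below all 3 Mbnl2KO libraries. Its adjusted p ranged from 6.00e-05 to 0.0748 over the alternatives, and the call was lost with library totals in place of TMM (log2 fold change -0.62), a scaling under which the median of all tested miRNAs moved from 0.07 to 0.35. Relative to that median, the difference was similar on both scales. The other 4 tested members did not pass. miR-365-3p was at -0.31 (SE 0.140, adjusted p = 0.113) with groups that did not overlap, miR-365-2-5p at -0.37 (SE 0.295, adjusted p = 0.355; -0.59 to -0.17 with each library left out and -0.41 to -0.08 under the other alternatives), miR-193b-5p at -0.73 (SE 0.474, adjusted p = 0.264) and miR-193b-3p at -0.06 (SE 0.236, adjusted p = 0.826).

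Thus 1 of 5 members passed, where 26.9% of all 309 tested miRNAs passed, and 2 of 5 had groups that did not overlap, where 47.9% of all tested did. For miR-365-2-5p, lower than WT in both knockouts, no difference between the knockouts was detected. For miR-193a-5p from the same locus, the difference between the knockouts did pass the test. Whether these arms differ from each other in this was not tested, and miR-365-2-5p had far fewer counts than miR-193a-5p. All 5 log2 fold changes were below 0, but the members share library scaling and are not replicates.

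Ratios between arms do not depend on how libraries are scaled. In WT, miR-365-2-5p amounted to 5.38%, 3.75% and 5.64% of miR-365-3p. In Mbnl1KO it reached 3.04%, 3.42% and 2.00%, and in Mbnl2KO 1.88%, 3.61% and 3.22%. All 6 knockout libraries were below all 3 WT libraries, the nearest being 3.61% against 3.75%. The mean log2 ratio (pseudocount 0.5) was 0.81 lower in Mbnl1KO and 0.78 lower in Mbnl2KO than in WT, and 0.70 and 0.67 lower without WT replicate 3. Without Mbnl2KO replicate 1 Mbnl2KO was 0.50 lower than WT. Between the knockouts it differed by -0.02, with an exact two-sided permutation p of 0.900 (0.900 after adjustment over 3 ratios, that of the miR-193a arms included). As miR-365-3p comes from both hairpins, this ratio can move with the 5p arm or with the part of miR-365-3p that chromosome 16 makes, and these cannot be told apart.

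**Figure D4:**
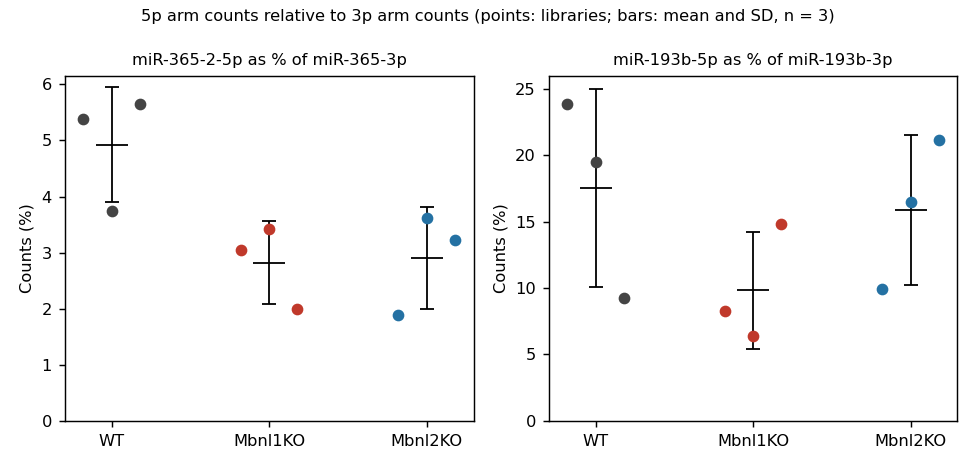
5p arm counts as a percentage of 3p arm counts (vertical axis) for miR-365 on the left and miR-193b on the right, one point per library, with mean and SD. miR-365-2-5p is at 4.92% of miR-365-3p on average in WT, 2.82% in Mbnl1KO and 2.91% in Mbnl2KO, and the miR-193b values overlap between groups.

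In the chromosome 16 miR-193b hairpin, the minor 5p arm was at 23.8%, 19.5% and 9.28% of the 3p arm in WT, at 8.27%, 6.41% and 14.8% in Mbnl1KO, and at 9.89%, 16.5% and 21.2% in Mbnl2KO. The groups overlapped. The log2 ratio in Mbnl1KO minus that in Mbnl2KO was -0.68 (exact two-sided permutation p = 0.200, adjusted 0.300). It was -0.45 without Mbnl1KO replicate 2, -0.44 without Mbnl2KO replicate 3 and -1.01 at the other end, without Mbnl1KO replicate 3. For miR-193a the order of the arms was the opposite, with the 5p arm far above the 3p arm in every library.

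Summed over libraries, miR-193a-5p exceeded miR-193a-3p by 453-fold in WT (906 and 2 counts, exact 95% interval 125 to 3746), by 161-fold in Mbnl1KO (643 and 4 counts, 62.5 to 592) and by at least 319-fold in Mbnl2KO (957 and 0 counts, with a floor of 3 counts over the group). These intervals cover counting error only and leave out the spread between mice. All miR-193a-3p counts in WT came from replicate 3, so without it the WT fold could only be given as a lower bound. As miR-193a-3p was at 0 in all 3 Mbnl2KO libraries, a log2 ratio per library would be set there by the pseudocount, and no difference between the knockouts is given. The 3p counts, 0 to 2 per library, were too few to show a change of arm usage, and these folds carry the same limit of the counting as the miR-193a-3p level itself.

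The share of chromosome 11 in the counts of the 6 locus-specific arms compares the loci within each library. Most of these counts come from miR-193a-5p on chromosome 11 (906 summed over WT) and miR-193b-3p on chromosome 16 (237). The share thus mainly sets a 5p arm against a 3p arm, and it is not independent of the miR-193a-5p level given above. In WT it was 79.2% (95% Wilson interval 75.0 to 82.8), 77.6% (73.4 to 81.2) and 80.2% (76.8 to 83.3). In Mbnl1KO it was 67.1% (62.7 to 71.2), 63.3% (57.1 to 69.2) and 75.6% (71.1 to 79.6), and in Mbnl2KO it was 76.5% (72.4 to 80.3), 76.3% (72.4 to 79.8) and 84.0% (80.1 to 87.2). These intervals cover counting error only. Without WT replicate 3, the Mbnl1KO mean was 9.70 points below WT, against 10.3 with it. Every Mbnl1KO library was below every library of the other groups, though Mbnl1KO replicate 3 lay within the counting intervals of several of them.

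**Figure D5:**
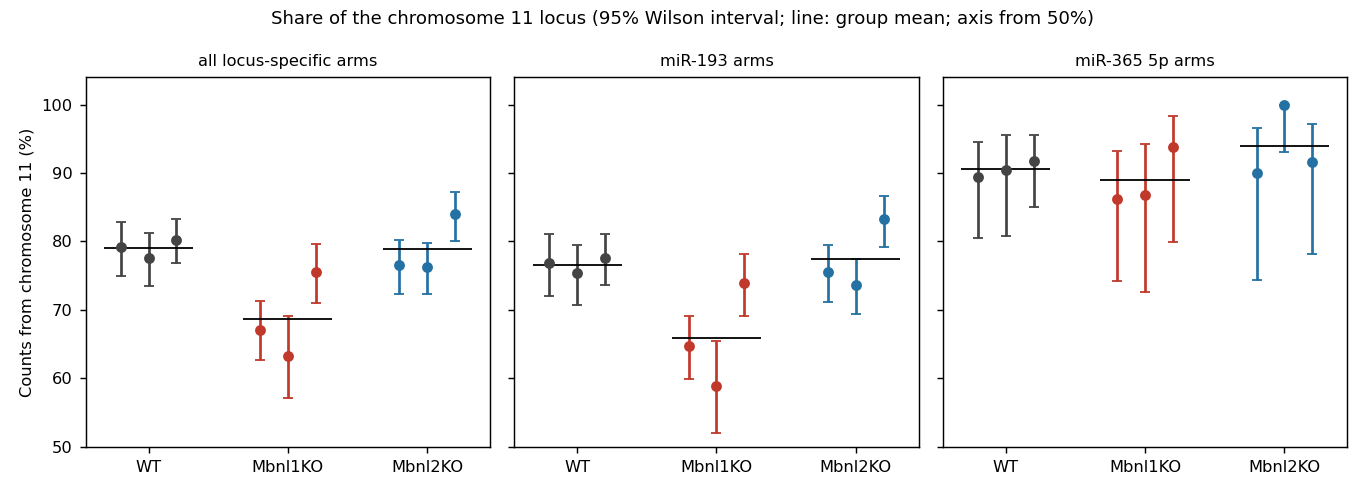
Percentage of locus-specific counts from chromosome 11 (vertical axis from 50%) in each library, with 95% Wilson intervals and group means, for all arms, the miR-193 arms and the miR-365 5p arms. For all arms, the means are 79.0% in WT, 68.7% in Mbnl1KO and 78.9% in Mbnl2KO, while the miR-365 5p arms overlap between groups.

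The mean share was 79.0% ± 1.34 (SD, n = 3) in WT, 68.7% ± 6.27 in Mbnl1KO and 78.9% ± 4.37 in Mbnl2KO. Between the knockouts it was 10.3 percentage points lower in Mbnl1KO, with an exact two-sided permutation p of 0.10, the smallest that 3 against 3 libraries allow, so no ratio or share could pass 0.05 here. Among the miR-193 arms alone, the share was 65.9% ± 7.58 in Mbnl1KO and 77.5% ± 5.09 in Mbnl2KO, and 1 pair of libraries overlapped (73.9% and 73.6%). Among the miR-365 5p arms alone, chromosome 11 gave 90.6% ± 1.14 in WT, 89.0% ± 4.16 in Mbnl1KO and 93.9% ± 5.36 in Mbnl2KO. In Mbnl1KO, miR-193a-5p was at 181 ± 51.3 normalized counts against 338 in WT and miR-193b-3p at 83.3 ± 15.8 against 88.3. Whether the share moved more among the miR-193 arms than among the miR-365 arms was not tested.

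The likeness of profiles was measured over the 9 libraries as the root mean square difference of log2 normalized counts, each miRNA centred on its own mean, among 305 other miRNAs. It is a description with no test, and all profiles share the same libraries. miR-365-3p was nearest to miR-361-5p (0.155), miR-1249-3p (0.199) and miR-19b-3p (0.200), where the median distance was 0.454. miR-365-2-5p was nearest to miR-146b-5p (0.387), miR-125b-1-3p (0.403) and miR-362-3p (0.422), where the median was 0.752. miR-193a-5p was nearest to miR-501-3p (0.250), miR-378a-3p (0.253) and miR-223-3p (0.268), where the median was 0.623.

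The nearest member to miR-193a-5p was miR-365-3p (0.336), and its cluster partner miR-365-2-5p stood further off (0.590), at rank 137 of the 305. As the neighbours of miR-193a-5p were picked for likeness over these libraries, a like group pattern follows from the choice. miR-501-3p had mean normalized counts of 294 in WT, 146 in Mbnl1KO and 242 in Mbnl2KO. miR-378a-3p, which lies in an intron of Ppargc1b and is known from work on mitochondrial metabolism, had 30477, 12404 and 28860 in the same order. miR-223-3p, a miRNA of myeloid cells, had 397, 216 and 426.

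Other miRNAs known from brown fat and adipocyte work were taken from a list of 18, of which 17 had a count. As the list was chosen with earlier results of these data known, its p-values are given as a description. In Mbnl1KO against WT, 4 of the 15 tested rose and 3 fell (edgeR, adjusted p under 0.05), where 33.1% of all tested miRNAs passed (60 higher and 45 lower), with a median log2 fold change of 0.03 against -0.01 for all. Among the higher ones, miR-27b-3p, which is known to repress adipogenesis, rose by 0.72 (SE 0.143, adjusted p = 1.82e-05), and miR-155-5p, also known as a repressor of brown adipocyte differentiation, rose by 0.86 (SE 0.165, adjusted p = 1.02e-05). Among the lower ones, miR-378a-3p fell by 1.30 (SE 0.151, adjusted p = 2.36e-12) and miR-196a-5p, known to promote browning of white fat, fell by 0.45 (SE 0.145, adjusted p = 0.0103). The other called ones were miR-182-5p (1.03, SE 0.254) and miR-27a-3p (1.61, SE 0.433), which rose, and miR-30b-5p (-0.36, SE 0.149), which fell. An effect on adipocytes was not tested.

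In Mbnl2KO against WT, 1 of 14 listed miRNAs passed, where 5.80% of all tested did: miR-182-5p rose by 1.33 (SE 0.256, adjusted p = 0.00235), with a list median of -0.02 against 0.02 for all. In Mbnl1KO against Mbnl2KO, 4 of 15 were higher and 3 lower, where 26.9% of all tested passed (47 higher and 36 lower), with a median of -0.04 against 0.07 for all. miR-27b-3p (0.72, SE 0.114, adjusted p = 0.000219) and miR-155-5p (1.31, SE 0.240, adjusted p = 0.00178) were higher in Mbnl1KO, and miR-26a-5p (-0.40, SE 0.112, adjusted p = 0.0143) and miR-30c-5p (-0.42, SE 0.109, adjusted p = 0.00932), which is known to promote adipocyte differentiation, were lower. miR-378a-3p, the third of the lower ones, was at -1.22 (SE 0.138). The other higher ones were miR-34a-5p (0.60, SE 0.184) and miR-27a-3p (1.99, SE 0.456).

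Markers of other cell types were read beside these results, where 33.1% of all tested miRNAs passed in Mbnl1KO and 5.80% in Mbnl2KO against WT. These lists too were chosen with earlier results known, so their p-values are a description. Of 7 miRNAs of blood and immune cells, miR-142a-3p was listed at 0, and their summed normalized count lay between 2168 and 2393 in WT, 2213 and 2916 in Mbnl1KO, and 2225 and 2554 in Mbnl2KO. In Mbnl1KO, 1 of the 5 tested rose (miR-155-5p) and 2 fell (miR-223-3p and miR-142a-5p), and in Mbnl2KO the log2 fold changes of the 5 lay between -0.42 and 0.38. In Mbnl1KO against Mbnl2KO, where miR-193a-5p was lower and 26.9% of all tested passed, miR-223-3p (-0.98, edgeR adjusted p = 0.000957) and miR-142a-5p (-1.19, adjusted p = 0.00580) were also lower, and miR-155-5p was higher (1.31). Of 7 miRNAs of vessel wall and connective tissue, miR-126a-3p and miR-126a-5p were listed at 0, and the sum lay between 36473 and 40845 in WT, 33250 and 48924 in Mbnl1KO, and 43529 and 50299 in Mbnl2KO. Of the 5 tested, miR-199a-3p fell in Mbnl1KO (log2 fold change -0.43) and miR-143-3p rose in Mbnl2KO (0.48). In Mbnl1KO against Mbnl2KO, miR-199a-3p was lower (-0.45, edgeR adjusted p = 0.0274). Of 6 muscle miRNAs, the sum lay between 4577570 and 5221760 in WT, 3184800 and 4171410 in Mbnl1KO, and 4182970 and 5551590 in Mbnl2KO. Most of this sum is miR-1a-3p, at -0.40 in Mbnl1KO against WT (SE 0.165, edgeR adjusted p = 0.0502). Of the 5 tested, miR-206-3p (1.93) and miR-133b-3p (0.71) rose in Mbnl1KO and miR-206-3p (0.89) in Mbnl2KO. In Mbnl1KO against Mbnl2KO, miR-206-3p (1.06, edgeR adjusted p = 2.87e-05) and miR-133b-3p (0.88, adjusted p = 0.00719) were higher. The part of these cell types in the levels of the miR-193 and miR-365 arms was not tested.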

How the data were processed

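The authors deposited one table of raw counts, unnormalized reads per mature miRNA in 9 libraries. By the study's methods, adapters were clipped, reads were aligned without mismatch to miRBase precursors, and those within a mature miRNA and a small margin were summed. Whether this counting made the deposited table is not stated in the sources used here, nor is how reads that match both loci were handled. The labels' processing notes name DESeq2.

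The counts of each pair of groups were fitted with edgeR's quasi-likelihood test (robust) after TMM normalization, for miRNAs with a mean of counts over DESeq2 size factors above 10. Benjamini-Hochberg adjustment ran over all tested miRNAs, with a threshold of 0.05. Shares and log2 ratios (pseudocount 0.5) were compared by exact permutation. The script was tested on simulated data. The text names all 7 members, the 3 nearest profiles of miR-365-3p, miR-365-2-5p and miR-193a-5p, and the 2 most abundant called adipocyte miRNAs per direction; miR-182-5p was the only one called in Mbnl2KO. The members and lists were chosen with earlier results of these data known. miR-378a-3p in the comparison of the knockouts, the other called adipocyte miRNAs and the called markers of other cell types were named after their values were seen.

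Sequences are from RefSeq (GRCm38.p6 table) and were matched exactly to GRCm39. The fits ran in edgeR 4.0.16 and DESeq2 1.42.0 under R 4.3.3; shares, ratios and figures were made with SciPy 1.17.1 and matplotlib 3.10.9 under Python 3.11.15. The alternatives were other scalings, DESeq2's Wald test, other filters, all libraries in 1 fit, a replicate block, each library left out, a stricter threshold, arms of 1 miRNA only and a pseudocount of 1.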

Additional observations from a re-analysis of the deposited data

Results flagged for a closer look

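miR-193a-5p differed between the knockouts in their direct comparison. Its log2 fold change in Mbnl1KO against Mbnl2KO was -0.94 (SE 0.211, edgeR adjusted p = 0.00401), and it was lower in 3 of 3 Mbnl1KO libraries than in any Mbnl2KO library. With each library left out in turn it lay between -1.10 and -0.76 and passed the threshold each time. With library totals in place of TMM it was at -0.62 and did not pass. In this comparison 26.9% of all tested miRNAs passed, and 47.9% had groups that did not overlap. In the same comparison the immune cell miRNAs miR-223-3p (-0.98) and miR-142a-5p (-1.19) were lower and miR-155-5p (1.31) was higher, the connective tissue miRNA miR-199a-3p (-0.45) was lower, and the muscle miRNAs miR-206-3p (1.06) and miR-133b-3p (0.88) were higher, and their part in the result was not tested. The Mbnl2KO mice differ from the Mbnl1KO mice in strain and Cre transgene as well as in genotype, and these cannot be told apart. Groups of 3 libraries were not searched for single outlying libraries.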

How the results depend on the processing

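Of 349 recomputed values of 32 results, 303 kept their direction and their side of the threshold or moved by less than the spread. Library totals in place of TMM moved the median of all tested miRNAs in Mbnl1KO against WT from -0.01 to 0.28, and the share of higher calls from 57.1% to 89.3%. In Mbnl1KO against Mbnl2KO the share of higher calls went from 56.6% to 94.6% with library totals, to 70.5% with totals without miR-1a-3p, to 70.0% without the filter on low counts and to 75.6% at a threshold of 0.01, and in Mbnl2KO against WT from 58.8% to 71.4% with library totals. A change of scaling moves every member by a like amount, by construction.

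In Mbnl1KO against WT, 2 to 3 members passed under every alternative. In Mbnl2KO against WT the single call was lost (0 members) with library totals (miR-365-2-5p at -1.07), totals without miR-1a-3p (-1.08), a minimum mean of 100, which removes that miRNA, and a threshold of 0.01 (-1.06). In Mbnl1KO against Mbnl2KO it was lost (0 members) with library totals (miR-193a-5p at -0.62). miR-365-3p in Mbnl1KO against WT no longer passed with library totals (-0.31). The cause of the other losses was not tested.

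The log2 fold change of miR-193b-3p, near 0, turned its sign with library totals in Mbnl1KO against WT (0.23) and Mbnl1KO against Mbnl2KO (0.23), with totals without miR-1a-3p in the latter (0.0071), and in Mbnl2KO against WT with DESeq2 size factors (-0.015), totals without miR-1a-3p (-0.014), DESeq2's Wald test (-0.010), at least 1 count (-0.0085) and all 9 libraries in 1 fit (-0.023).

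With each library left out in turn, the members passing were 2 to 3, 0 to 1 and 1 to 1 in the 3 comparisons. miR-193b-3p ranged from -0.23 to 0.20 (Mbnl1KO against WT), from -0.18 to 0.30 (Mbnl2KO against WT) and from -0.26 to 0.068 (Mbnl1KO against Mbnl2KO). In Mbnl2KO against WT, miR-193a-5p ranged from -0.093 to 0.34 and miR-193b-5p from -0.25 to 0.090. The log2 ratio of miR-365-2-5p to miR-365-3p between the knockouts ranged from -0.31 to 0.20, and the difference in chromosome 11 share from -13.7 to -7.59 points. That share difference was -11.6 points with the miR-193 arms alone and -4.93 with the miR-365 5p arms alone.

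Replicate numbers did not pair the libraries: 9 correlations of same-numbered libraries lay between -0.15 and 0.15, and 2 were over 0.1. With the replicate number as a block, 3, 1 and 1 members passed, as without it, and miR-365-2-5p stood at -1.39 in Mbnl1KO and -1.02 in Mbnl2KO against WT.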

Other observations

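The spread between mice was wider than counting error for the abundant members and close to it for the rare ones. miR-193a-5p had a coefficient of variation of 29.8% in WT, where counting alone gives 5.75%, and miR-365-3p had 26.4% in WT against 2.57% from counting. In Mbnl2KO, miR-365-3p varied by 4.81% against 2.78% from counting. miR-193b-5p varied by 18.8% in WT, below the 27.7% that counting gives, and by 29.6% in Mbnl2KO against 28.5%. With 3 libraries per group, its spread between mice could not be told from counting error.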
